A study of Homo sapiens with 21 samples.

Results

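CD55, CD46 and CD59 are the 3 membrane complement regulators described here, of 58735 genes in the table and 14686 with a mean of at least 0.5 FPKM (fragments scaled to gene length and library size) over all libraries. They were chosen by name, with the level of CD55 as the starting point. CD55 belongs to a set of genes that the study selected from these same libraries for a rise with calcium, cadmium and GSK4716 against control. Its values in those 3 comparisons, and in the interactions built on them, are therefore given as a description with no test. The question was whether CD55 moved alone or whether the other regulators moved with it.

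RNA-seq was done in MDA-MB-453, a human breast cancer cell line whose genotype is given as wild type, in 7 groups of 3 libraries. The groups were control (no treatment), calcium (10 mM), cadmium (10 μM), GSK4716 (5 μM, an agonist of the orphan nuclear receptor ESRRB), DES (diethylstilbestrol, 10 μM, an ESRRB antagonist), DES_calcium and DES_cadmium, with 24 h of treatment. Cells had been held in medium with charcoal-stripped serum beforehand. Calcium and GSK4716 were given without serum and cadmium in a low concentration of stripped serum, while the medium of the single control group is not stated separately, so medium and treatment cannot be told apart. The paper gives GSK4716 and DES as dissolved in ethanol and names no ethanol for the control, so vehicle and drug cannot be told apart. DES preceded the metal by 3 h in the combined groups, so the length of DES exposure may have differed from that of DES alone. All libraries came from 1 cell line, and the labels do not say whether replicates were separate cultures, so p-values measure the spread between these libraries. All 11 luminal epithelial markers had a mean of at least 1 FPKM, while the 5 basal, 5 leukocyte and 3 endothelial markers were each under 0.5. Of 5 mesenchymal markers, COL1A1 alone was expressed (mean 14.8 FPKM). The sum of that list was 10.7 to 12.3 FPKM in control, 14.2 to 17.4 with calcium and 12.7 to 33.3 with DES, and its part in the results for calcium and DES was not tested. The basal sum, though low, was 0.116 to 0.284 FPKM in control, 0.403 to 0.853 with calcium and 0.792 to 1.85 with cadmium. The leukocyte sum was 0 to 0.05 FPKM in control and 0.141 to 1.09 with DES. The part of these sums in the results was not tested.

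Complement is a cascade of plasma proteins that marks and lyses cells. Host cells carry membrane proteins that stop it on their own surface. CD55 (decay-accelerating factor) takes apart the convertases that cleave C3 and C5, CD46 (membrane cofactor protein) helps factor I to inactivate C3b and C4b, and CD59 (protectin) blocks the last step, the insertion of C9 into the membrane attack complex. CD55 and CD59 are held in the membrane by a glycosylphosphatidylinositol (GPI) anchor, whereas CD46 spans it. All are found on epithelial cells and are often abundant on carcinoma cells.

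CD55 (ENSG00000196352) lies on chromosome 1 from 207321376 to 207386804 on the + strand of GRCh38, and CD46 (ENSG00000117335) from 207752057 to 207795513 on the same strand, 365253 bases further on. CD59 (ENSG00000085063) lies on chromosome 11 from 33703010 to 33736491 on the - strand. CD55 overlaps no other annotated gene. CD46 overlaps the long noncoding RNA MIR29B2CHG on the opposite strand (mean 6.04 FPKM) and the pseudogene CDCA4P4 on its own strand (mean 2.06 FPKM), and CD59 overlaps ENSG00000284969 on its own strand (mean 0.092 FPKM). The libraries are described as either directional or not, so reads in these overlaps are uncertain.

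The promoters are shown because CD55 and CD46 lie in 1 region, share a function and yet differed in level and in response. These are the 250 bases before the first listed RefSeq start (GRCh38.p14), on the gene's strand, at chr1:207321428-207321677 for CD55, chr1:207751788-207752037 for CD46 and chr11:33736480-33736729 for CD59. CD55 has 1 listed start, CD46 has 2 and CD59 has 4. Capitals mark every match, on either strand, to TGACG (a cyclic AMP response half-site), TGANTCA (AP-1), AGGTCA (a nuclear receptor half-site), AAGGTCA (its extended form), GGGCGG (a GC box) or CCAAT.
CD55: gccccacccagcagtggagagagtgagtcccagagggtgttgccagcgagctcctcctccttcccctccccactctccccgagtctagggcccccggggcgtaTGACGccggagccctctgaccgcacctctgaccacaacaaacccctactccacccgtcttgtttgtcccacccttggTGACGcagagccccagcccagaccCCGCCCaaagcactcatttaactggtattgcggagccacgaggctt
CD46: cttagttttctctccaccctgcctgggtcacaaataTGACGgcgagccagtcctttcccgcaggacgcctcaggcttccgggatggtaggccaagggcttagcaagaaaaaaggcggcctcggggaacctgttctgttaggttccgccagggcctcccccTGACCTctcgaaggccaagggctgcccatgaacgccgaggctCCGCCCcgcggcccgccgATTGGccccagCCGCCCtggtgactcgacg
CD59: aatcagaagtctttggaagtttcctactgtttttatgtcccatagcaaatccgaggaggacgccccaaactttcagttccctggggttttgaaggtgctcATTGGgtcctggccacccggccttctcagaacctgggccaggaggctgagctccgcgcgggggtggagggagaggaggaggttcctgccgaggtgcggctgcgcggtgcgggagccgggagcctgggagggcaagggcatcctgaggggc
The CD55 window held TGACG at 2 places, beginning at positions -147 and -70 from the start, and a GC box at -46. The CD46 window held TGACG at -214, AGGTCA on the reverse strand at -90, GC boxes at -48 and -19 and a reverse CCAAT at -30. The CD59 window held a single match, a reverse CCAAT at -150. Of all 35116 RefSeq windows of this length, 21.2% held TGACG, 6.57% TGANTCA, 12.1% AGGTCA, 3.44% AAGGTCA (each of which also holds AGGTCA), 42.6% GGGCGG and 32.01% CCAAT. The motifs were chosen after the levels had been seen, and a match is a description of the sequence only. The windows were 64.0%, 64.8% and 62.0% G or C for CD55, CD46 and CD59, against a median of 58.0% over all windows.

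CD46 was the most abundant of the 3 regulators. Since FPKM is scaled to gene length, levels can be set side by side. The mean over all 21 libraries was 61.5 FPKM for CD46, at the 95.3rd percentile of the genes tested. It was 10.7 FPKM for CD55 and 9.86 FPKM for CD59, at the 71.5th and 69.6th percentiles. The fragments behind a single value numbered 4863 to 21290 for CD46, 368 to 3439 for CD55 and 787 to 4428 for CD59. In RNA from a whole culture, fewer cells with the transcript and less transcript per cell cannot be told apart.

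CD55 was lowest in control. Its FPKM was 3.06, 2.95 and 4.33 in control replicates 1 to 3. It was 9.05, 23.5 and 26.0 with calcium, 5.12, 11.9 and 18.6 with cadmium, and 8.56, 5.90 and 10.6 with GSK4716. Every treated library stood above every control library, although replicate 1 was well below the other two with calcium and with cadmium. It was 7.76, 11.2 and 9.19 with DES, 11.0, 22.9 and 7.78 in DES_calcium, and 10.7, 9.99 and 5.42 in DES_cadmium. These too were all above the control libraries, with 1 high library in DES_calcium. For DES alone this was so in 25.9% of all genes, and for the combined groups the share was not counted.

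The group means of CD55 ordered as calcium (19.5 ± 9.14 FPKM), DES_calcium (13.9 ± 7.93), cadmium (11.9 ± 6.74), DES (9.37 ± 1.70), DES_cadmium (8.72 ± 2.88), GSK4716 (8.35 ± 2.34) and control (3.45 ± 0.770, SD, n = 3 in each group). Each neighbouring pair in that order overlapped except the last, GSK4716 and control. The order among the treated groups is therefore not resolved by these replicates.

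CD46 stayed high in every group and was lowest with DES. Its FPKM was 75.6, 67.0 and 62.2 in control, 62.0, 71.3 and 107 with calcium, 56.8, 54.1 and 70.5 with cadmium, and 77.0, 110 and 64.5 with GSK4716. Calcium replicate 3 and GSK4716 replicate 2 were the highest libraries, and all 3 of these treated groups overlapped control. It was 30.5, 40.7 and 47.1 with DES, 43.2, 45.2 and 55.4 in DES_calcium, and 34.7, 60.8 and 55.6 in DES_cadmium. All 9 libraries with DES lay below the lowest control library. For DES alone this was so in 22.9% of all genes, and for the combined groups the share was not counted. By group mean the order was GSK4716 (83.8 ± 23.6 FPKM), calcium (80.2 ± 23.8), control (68.3 ± 6.80), cadmium (60.5 ± 8.80), DES_cadmium (50.4 ± 13.8), DES_calcium (47.9 ± 6.55) and DES (39.4 ± 8.35, SD, n = 3), with overlap between all neighbours.

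CD59 was highest with calcium. Its FPKM was 8.60, 6.43 and 7.93 in control, 14.4, 14.8 and 19.1 with calcium, 11.3, 12.4 and 10.8 with cadmium, and 11.4, 11.2 and 7.74 with GSK4716. The calcium and cadmium libraries were all above control, whereas GSK4716 replicate 3 lay within the control range. It was 8.27, 7.94 and 8.18 with DES, 6.06, 7.62 and 7.18 in DES_calcium, and 12.7, 5.48 and 7.52 in DES_cadmium. Calcium (16.1 ± 2.61 FPKM) did not overlap cadmium (11.5 ± 0.801), the next in order. The means then ran through GSK4716 (10.1 ± 2.07), DES_cadmium (8.58 ± 3.74), DES (8.13 ± 0.169), control (7.66 ± 1.11) and DES_calcium (6.95 ± 0.800, SD, n = 3), with overlap between neighbours.

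**Figure D1:**
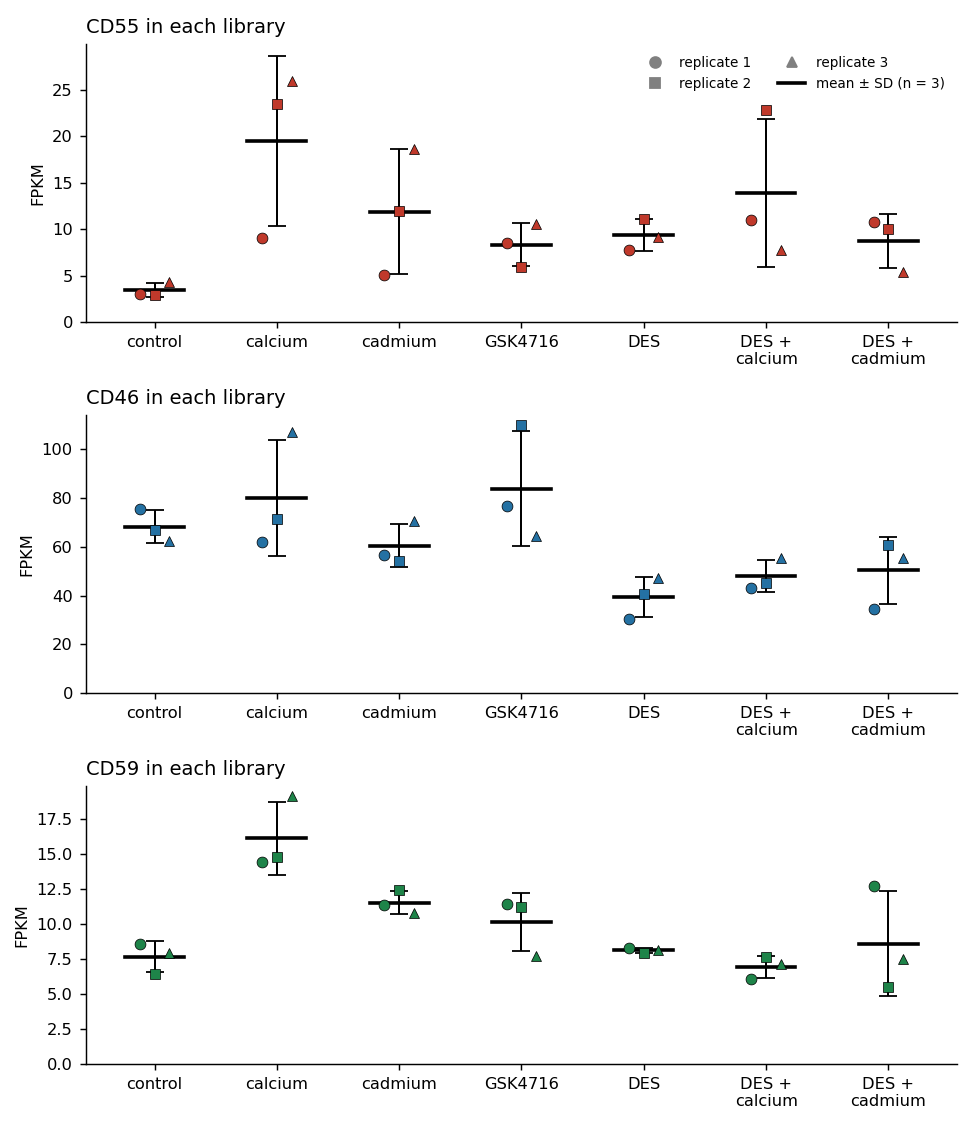
FPKM (linear axes from 0) of CD55, CD46 and CD59 in each library of the 7 groups; circles, squares and triangles are replicates 1, 2 and 3, and bars give the mean ± SD (n = 3). CD55 was lowest in the 3 control libraries (2.95 to 4.33 FPKM), CD46 was lowest with DES (30.5 to 47.1) and CD59 was highest with calcium (14.4 to 19.1).

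CD59 rose with calcium, while CD46 was not called. Tests used limma on log2(FPKM + 0.1), with p-values adjusted by the Benjamini-Hochberg method over all genes tested, and a gene was called at an adjusted p under 0.05. CD59 rose by a log2 fold change of 1.06 (SE 0.17, adjusted p = 0.0253 by limma), about 2.08-fold, when 4.60% of genes were called higher and 2.53% lower. That call was close to the threshold. It was lost on leaving out any of the control libraries or calcium replicate 1 or 2 (adjusted p up to 0.0928, log2 fold change 0.93 to 1.15), and the count of all genes called fell from 1046 to 7 without control replicate 1. CD46 had a log2 fold change of 0.20 (95% interval -0.34 to 0.73, adjusted p = 0.660). For CD55 the log2 fold change was 2.35 (SE 0.43), given as a description. CD55 and CD59 were among the genes whose calcium libraries all lay above control, as were 16.0% of genes.

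Cadmium gave a smaller difference in CD59 that was not called. Its log2 fold change was 0.59 (SE 0.15, adjusted p = 0.0993), and all 3 cadmium libraries were above control, as for 17.7% of genes. CD46 had a log2 fold change of -0.18 (interval -0.55 to 0.19, adjusted p = 0.476). CD55 had a log2 fold change of 1.59 (SE 0.47), as a description. Few genes passed the test in this comparison, 0.150% of those tested, and leaving out cadmium replicate 1, the library with the lowest CD55 of that group, raised the count from 22 to 1605.

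GSK4716 gave no call for CD46 or CD59. The log2 fold changes were 0.26 for CD46 (interval -0.25 to 0.78, adjusted p = 0.573) and 0.39 for CD59 (interval -0.09 to 0.86, adjusted p = 0.380). CD55 had a log2 fold change of 1.23 (SE 0.26), as a description, with all 3 libraries above control, as for 10.7% of genes. No gene was called by limma here (0% of genes), although 2404 had an unadjusted p under 0.05 and limma-voom on the recovered fragments called 49.

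DES moved CD55 and CD46 in opposite directions. CD55 rose by a log2 fold change of 1.42 (SE 0.22, adjusted p = 0.00551 by limma), about 2.68-fold, and remained called when any 1 of the 6 libraries was left out. CD46 fell by 0.81 on the log2 scale (SE 0.20, adjusted p = 0.0225), to 0.571 of its control level. The CD46 call was lost without control replicate 1 or 2 or DES replicate 2 (adjusted p up to 0.0953, log2 fold change -0.95 to -0.64). DES was a broad treatment, with 16.7% of genes called higher and 12.9% lower, so neither call was rare. All DES libraries were above control for CD55, as for 25.9% of genes, and below it for CD46, as for 22.9%. These control libraries are the ones against which CD55 was selected for a rise, so its value with DES is not independent of that choice. CD59 had a log2 fold change of 0.10 (interval -0.29 to 0.48, adjusted p = 0.683), a sign that turned under scaling by total fragments (-0.08) and in limma-voom (-0.09).

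A metal on top of DES gave no call in any of the 3 genes. In DES_calcium against DES the log2 fold change was 0.43 for CD55 (interval -0.54 to 1.40, adjusted p = 0.645), 0.30 for CD46 (interval -0.19 to 0.78, adjusted p = 0.543) and -0.23 for CD59 (interval -0.60 to 0.14, adjusted p = 0.536). The CD55 value rested on DES_calcium replicate 2 and was -0.000783 without it. All 3 CD59 libraries of DES_calcium were below those of DES, as for 12.1% of genes. Only 0.136% of genes were called, 20 in all, and none with the replicate number as a block.

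In DES_cadmium against DES the log2 fold change was -0.15 for CD55 (interval -0.92 to 0.63, adjusted p = 0.909), 0.33 for CD46 (interval -0.37 to 1.04, adjusted p = 0.744) and -0.01 for CD59 (interval -0.80 to 0.78, adjusted p = 0.996). The CD55 value changed sign without DES_cadmium replicate 3 (0.16). Called genes made up 0.266% (39 genes, and 0 with the replicate block).

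The effect of calcium on CD59 differed with DES. The interaction, the calcium effect with DES minus that without, was -1.29 on the log2 scale (SE 0.23, adjusted p = 0.0172 by limma), and it was called without any 1 of the 12 libraries. Among all genes 1.25% were called higher and 2.38% lower for this interaction. With all 7 groups in one fit the adjusted p was 0.0721. CD46 had an interaction of 0.10 (interval -0.59 to 0.78, adjusted p = 0.895), and CD55, as a description, -1.92 (SE 0.61). For cadmium the interaction was -0.60 in CD59 (interval -1.42 to 0.22, adjusted p = 0.414), 0.51 in CD46 (interval -0.25 to 1.28, adjusted p = 0.453) and, as a description, -1.74 in CD55 (SE 0.59), with 1.18% of genes called. In CD55 the interaction came with a DES group that was already above control, while in CD59 the DES and control groups overlapped.

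**Figure D2:**
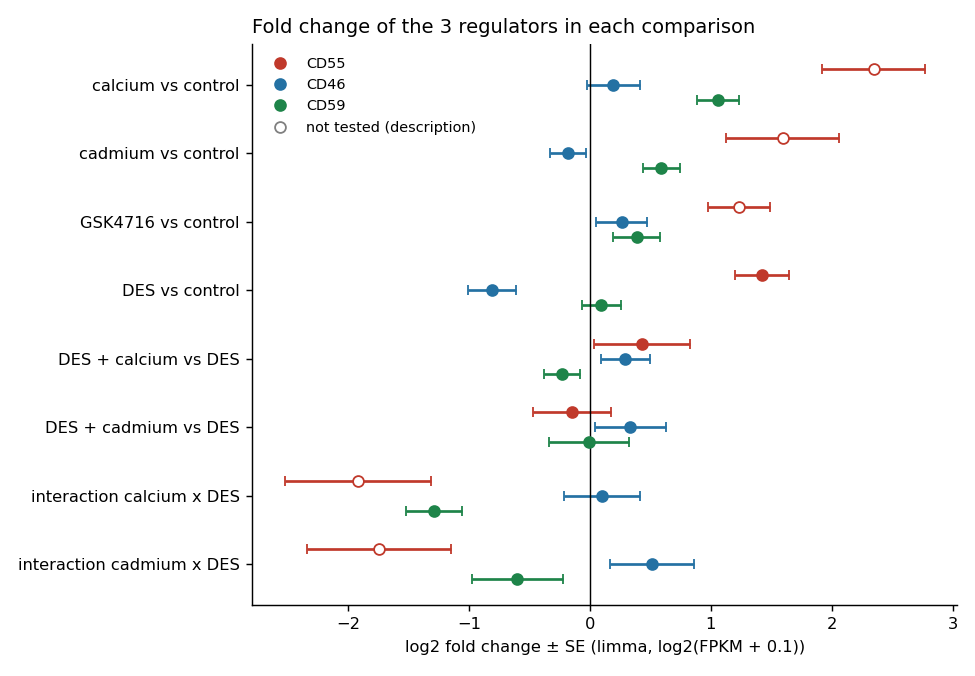
Log2 fold change (horizontal axis, ± SE) of CD55, CD46 and CD59 in 6 pairwise comparisons and 2 interactions, from limma; open circles are CD55 values given as a description. With DES, CD55 lay at 1.42 and CD46 at -0.81, and for calcium with and without DES the CD59 interaction lay at -1.29.

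Ratios within a library do not depend on how libraries were scaled to each other, so they show whether 2 regulators moved apart. The ratio of CD59 to CD46 was 0.0961 to 0.127 in control, against 0.178 to 0.232 with calcium, 0.153 to 0.229 with cadmium and 0.174 to 0.271 with DES. The log2 differences from control were 0.87, 0.78 and 0.91, each with no overlap and an exact permutation p of 0.1, the smallest that 3 against 3 libraries can give. With GSK4716 the ratio was 0.102 to 0.148 and overlapped control (log2 difference 0.13, exact permutation p = 0.6). In DES_calcium it was 0.129 to 0.169, below every DES library (log2 difference -0.53, exact permutation p = 0.1).

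CD55 stood higher relative to both of the others with DES, in a comparison with the control libraries that had entered its selection as a gene low in control. The ratio of CD55 to CD46 was 0.0404 to 0.0696 in control and 0.195 to 0.274 with DES (log2 difference 2.26, exact permutation p = 0.1). The ratio of CD55 to CD59 was 0.356 to 0.546 in control and 0.938 to 1.40 with DES (log2 difference 1.35, exact permutation p = 0.1). As a description, the ratio of CD55 to CD59 was 0.628 to 1.59 with calcium, above control throughout, 0.451 to 1.72 with cadmium and 0.526 to 1.37 with GSK4716, both overlapping control. The ratio of CD55 to CD46 was 0.146 to 0.329 with calcium and 0.0901 to 0.264 with cadmium, above control, and 0.0536 to 0.164 with GSK4716, which overlapped it. Against DES alone, a metal gave overlapping ratios of CD55 to either gene. The log2 differences for CD55 to CD59 were 0.67 in DES_calcium (exact permutation p = 0.3) and -0.14 in DES_cadmium (exact permutation p = 0.7). For CD55 to CD46 they were 0.14 (exact permutation p = 0.8) and -0.49 (exact permutation p = 0.5). Adjusted by Benjamini-Hochberg over these 12 exact permutation tests, the smallest p was 0.2, so none could pass 0.05.

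**Figure D3:**
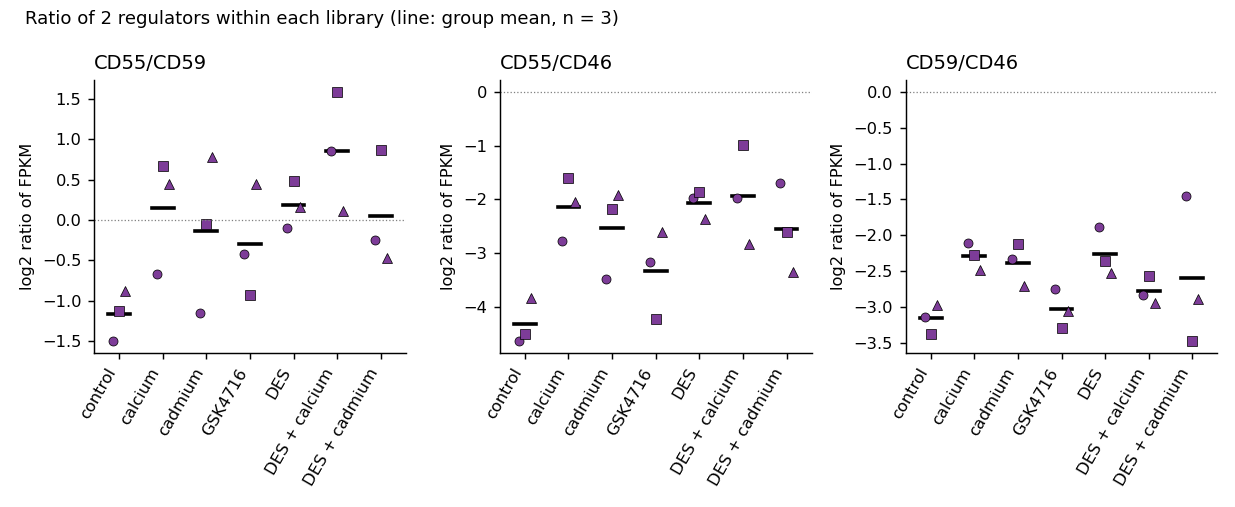
Log2 ratio of FPKM of 2 regulators within each library (vertical axis) in the 7 groups; circles, squares and triangles are replicates 1, 2 and 3 and the line is the group mean (n = 3). The mean log2 ratio of CD55 to CD46 was -4.33 in control and -2.07 with DES, and that of CD59 to CD46 was -3.16 in control and -2.29 with calcium.

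Over the 21 libraries, the log2 levels of CD55 and CD59 had a Pearson r of 0.41, those of CD46 and CD59 0.39, and those of CD55 and CD46 -0.03. The libraries share treatments and scaling, so these values describe the table and carry no p. The genes most like CD55, among 12245 with a mean of at least 1 FPKM, were MAP2, a microtubule-associated protein (r = 0.88), CAST, the calpain inhibitor calpastatin (0.87), GDF15, a stress-responsive cytokine (0.86), FLVCR2, a membrane transporter (0.85), and NR4A3, an orphan nuclear receptor (0.85). MAP2 and FLVCR2 are in the set the study selected for a rise with calcium, cadmium and GSK4716, as CD55 is, so their likeness to it follows in part from that choice. MAP2 and NR4A3 reached a mean of 1 FPKM only through calcium, with 0.792 and 0.624 FPKM over the other groups. CD59 stood 905th in that order. GDF15 had a mean of 64.7 FPKM in control, 937 with calcium and 311 with cadmium, and NR4A3 of 0.0206, 6.58 and 1.80. The genes most like CD59 were RCAN1, a regulator of calcineurin (r = 0.87), CORO1C, an actin-binding coronin (0.85), TRIM5 (0.85), TNFAIP1 (0.85) and ESYT1, a membrane tether that binds calcium (0.85). RCAN1 had a mean of 3.12 FPKM in control, 10.9 with calcium and 2.27 in DES_calcium. The genes most like CD46 were DOP1A (r = 0.89), MAP3K7, a kinase of the TGF-beta and NF-kappa B pathways (0.89), USP12, a deubiquitinase (0.89), RASA2, a Ras GTPase-activating protein (0.88), and BMPR2, a BMP receptor (0.88). The means of all 5 were lower with DES than in control, as in MAP3K7 with 2.29 and 4.13 FPKM. They were picked for likeness to CD46, which was lowest with DES, so this follows in part from that choice.

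The wider complement system was thinly expressed. Of 23 other regulators, 3 reached a mean of 0.5 FPKM, namely CLU (clusterin, which binds the terminal complex in fluid), SUSD4 and THBD (thrombomodulin). CLU rose with calcium from 39.5 ± 5.19 to 81.1 ± 10.3 FPKM (log2 fold change 1.04, SE 0.15, adjusted p = 0.0204), and the call was lost without control replicate 1 or 2 or calcium replicate 1 or 2 (adjusted p up to 0.104). With cadmium it was 107 ± 35.7 FPKM (log2 fold change 1.39, adjusted p = 0.0644), not called, but it was called higher with all 7 groups in one fit (adjusted p = 0.00389), in limma-voom (0.0324) and without cadmium replicate 1 (0.0295), and the adjusted p was up to 0.236 without another library. THBD fell with DES from 17.1 ± 3.67 to 11.0 ± 0.617 FPKM (log2 fold change -0.61, SE 0.18, adjusted p = 0.0438), a call that held in 1 of 6 fits with a library left out. SUSD4 had a mean of 3.38 FPKM and was not called in any of the 8 comparisons.

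Of 29 complement components, 3 were tested: C5, C8G and CFD (factor D, the protease that starts the alternative pathway loop). C5 fell with calcium from 1.15 ± 0.333 to 0.290 ± 0.0460 FPKM (log2 fold change -1.66, SE 0.29, adjusted p = 0.0284). That call held in 1 of 6 fits with a library left out. With cadmium the log2 fold change of C5 was -1.61 (adjusted p = 0.0644), not called. It was called lower with all 7 groups in one fit (adjusted p = 0.0224), in limma-voom (0.0381) and without cadmium replicate 1 (0.0399). The adjusted p was up to 0.235 without another library. Without cadmium replicate 1, 2 of the 3 components were called lower, and 1605 of all 14686 genes were called in either direction. The calcium interaction of C5 with DES was 2.00 (SE 0.46, adjusted p = 0.0375, called in 3 of 12 fits with a library left out). C3, the substrate of the convertases that CD55 takes apart, had a mean of 0.033 FPKM and a highest value of 0.181. Of 11 complement receptors, C1QBP and CALR were tested and neither was called by limma in any of the 8 comparisons, although CALR with calcium, and C1QBP with GSK4716 and with DES, had an unadjusted p under 0.05, as did 23.5%, 16.4% and 43.2% of all genes in those comparisons. Of the receptors 1 was called lower with calcium by limma-voom and under scaling by total fragments, and 1 higher with DES without DES replicate 3. Limma-voom called 1586 of all 14686 genes with calcium in either direction. In the main fit 2.53% of all genes were called lower with calcium and 16.7% higher with DES.

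Most of the listed genes from the region of chromosome 1 around CD46 and CD55 were under 0.5 FPKM on average, among them CR1, CR2, CR1L, C4BPA, C4BPB and CD34. In these 6 genes the highest single library was 0.305 FPKM, for CR1L. Of these 23 genes, 5 were tested, with means of 46.9 FPKM for MAPKAPK2, 13.9 for EIF2D, 6.32 for YOD1, 4.45 for PFKFB2 and 3.67 for LAMB3, and in the 6 pairwise comparisons 1 was called, once, in the calcium comparison with 4.60% of all genes called higher. LAMB3, a laminin chain of epithelial basement membrane that starts 1819357 bases beyond the end of CD46, rose with calcium from 0.843 ± 0.441 to 17.0 ± 8.88 FPKM (log2 fold change 4.18, SE 0.49, adjusted p = 0.0123), a call lost without control replicate 1 or 2 (adjusted p up to 0.0657). Its calcium interaction with DES was -3.90 (SE 0.62, adjusted p = 0.01003), called without any 1 of the 12 libraries.

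Of the genes that build the GPI anchor, 27 were tested, and limma called 11 with DES and none with calcium, cadmium or GSK4716. In those 3 comparisons 4, 13 and 3 of them had an unadjusted p under 0.05, beside 23.5%, 25.9% and 16.4% of all genes. Limma-voom called 1, 1 and 0, beside 1586, 454 and 49 of all 14686 genes. With all 7 groups in one fit 1 was called lower with calcium and 3 with cadmium. Without cadmium replicate 1 the cadmium count was 4. Of all 14686 genes, 1026 were called with cadmium in the one fit and 1605 without cadmium replicate 1, in either direction. In the main fit with calcium, 2.53% of all genes were called lower. With DES 4 of the 27 anchor genes rose and 7 fell, against 16.7% and 12.9% of all genes. The median log2 fold change of the 27 was -0.12 beside 0.05 over all genes. The counts were 3 and 8 under scaling by total fragments, and 1 to 4 and 3 to 8 on leaving out a library. PIGU, a subunit of the transamidase that attaches the anchor, fell from 12.4 ± 1.37 to 2.55 ± 0.639 FPKM (log2 fold change -2.26, SE 0.22, adjusted p = 0.00119). PIGO, which adds ethanolamine phosphate to the anchor, fell by 1.33 on the log2 scale (adjusted p = 0.00231), and both were called without any 1 of the 6 libraries. PIGW, an inositol acyltransferase, fell by 1.30 (adjusted p = 0.00979, but 0.0526 without control replicate 1). GPAA1, another transamidase subunit, fell by 1.13 (adjusted p = 0.0134, but 0.0508 without control replicate 2). DPM2 and DPM3, subunits of the enzyme that makes the mannose donor, rose by 0.99 (adjusted p = 0.00602) and 0.85 (adjusted p = 0.0146, lost without control replicate 1 or 2 or DES replicate 2). PIGU also had a cadmium interaction with DES of 2.16 (adjusted p = 0.0326), PIGQ one of 2.08 (adjusted p = 0.0478) and, for calcium, PIGK one of 1.41 (adjusted p = 0.0256), and these were called in 5 of 12, 3 of 12 and 6 of 12 fits with a library left out.

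Of the other GPI-anchored proteins, 20 were tested. CEACAM6, which limma did not call with calcium, passed the filter on low values only through calcium, and PRNP, the prion protein, is in the set the study selected for a rise with calcium, so both are left out of the calcium counts. Of the remaining 18, 2 rose and 0 fell with calcium (limma), against 4.60% and 2.53% of all genes. With an unadjusted p under 0.05 there were 7, against 23.5% of all genes, and 6 had a negative value, against 51.0%. Limma-voom called 3 higher and 1 lower, beside 1586 of all 14686 genes in either direction. ULBP2, a ligand of the natural killer receptor NKG2D, rose from 2.23 ± 0.599 to 7.13 ± 1.11 FPKM (log2 fold change 1.66, SE 0.23, adjusted p = 0.0185). LYPD3, a urokinase receptor relative, had a log2 fold change of 1.61 (adjusted p = 0.0275). The value of PRNP, 1.31 (adjusted p = 0.0204), is not independent evidence. The ULBP2, LYPD3 and PRNP calls held in 2, 1 and 3 of 6 fits with a library left out. With DES, 5 of the 20 rose and 3 fell, against 16.7% and 12.9% of all genes, among them ULBP1 (log2 fold change 1.88, adjusted p = 0.0208, called in 1 of 6 such fits), EFNA3 (1.28, adjusted p = 0.00524, called in 6 of 6), HYAL2 (-1.66, adjusted p = 0.0175, called in 2 of 6) and LYPD6 (-1.29, adjusted p = 0.0126, called in 4 of 6). The DES counts were 2 and 4 under scaling by total fragments, 1 and 4 with all 7 groups in one fit, and 1 to 3 and 0 to 3 on leaving out a library. In the calcium interaction with DES, 14 of the 18 had a negative value, as did 51.0% of all genes, and 1 was called. That gene, RTN4R, the Nogo receptor, had an interaction of -1.25 (adjusted p = 0.0427, called in 2 of 12 fits with a library left out).

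**Figure D4:**
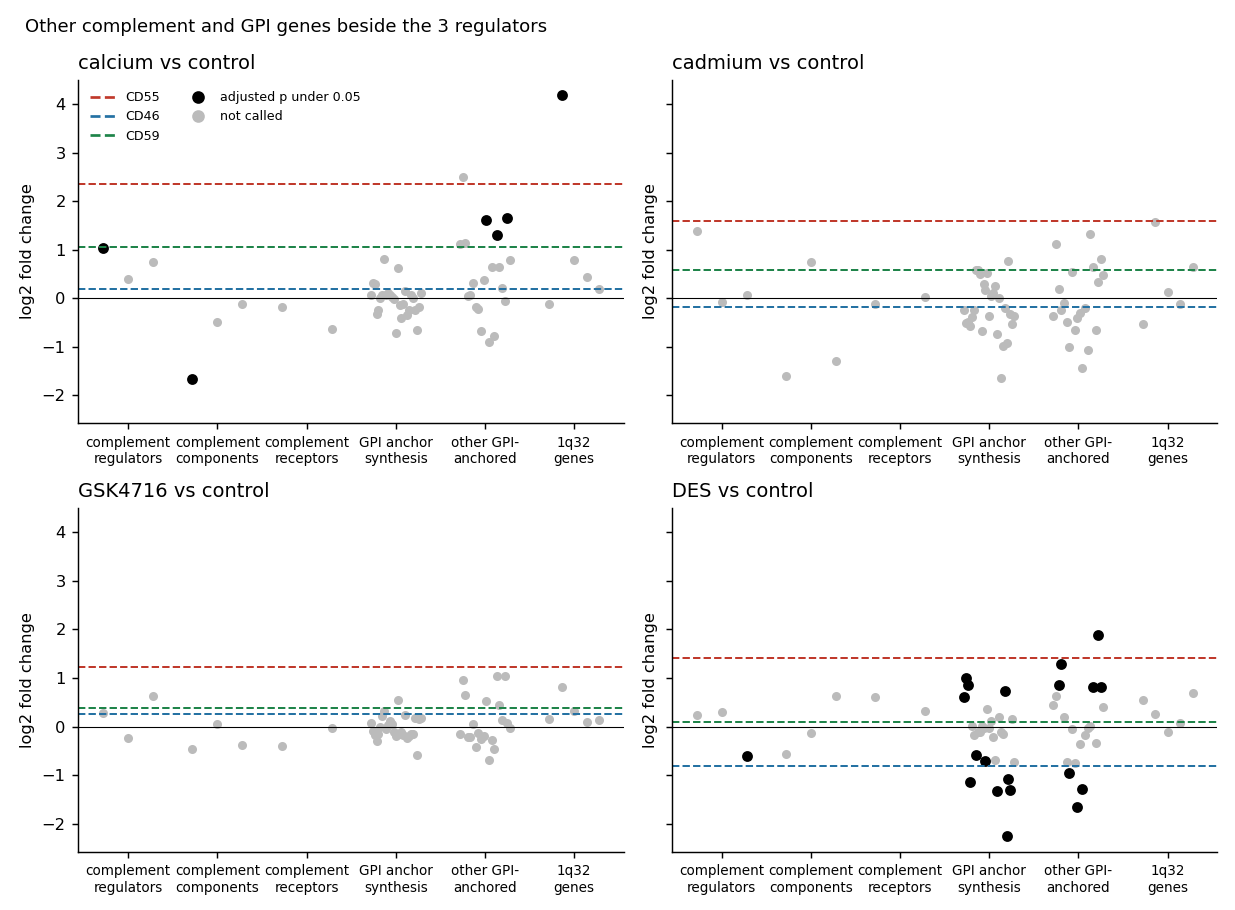
Log2 fold change (vertical axis, limma) of the tested genes of 6 lists in 4 comparisons with control; black points passed an adjusted p under 0.05, grey points did not, and dashed lines give CD55, CD46 and CD59. With DES, 4 GPI anchor synthesis genes rose and 7 fell, while with calcium none was called. The black points with calcium include PRNP, which the study selected for that rise and which the text leaves out of its counts.

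For each of CD55 and CD46 a single binding partner was looked at. JAG1, a Notch ligand that also binds CD46, rose with calcium from 3.43 ± 0.602 to 12.9 ± 3.77 FPKM (log2 fold change 1.86, SE 0.25, adjusted p = 0.0166), a call lost without control replicate 1 or 2 or calcium replicate 2 (adjusted p up to 0.0756). With cadmium JAG1 had a log2 fold change of 1.46 (adjusted p = 0.117). ADGRE5 (CD97), an adhesion receptor that binds CD55, was low, at 0.242 ± 0.149 FPKM in control and 1.54 ± 0.523 with calcium. It passed the filter on low values only through calcium, its mean over the other groups being 0.394 FPKM, so its calcium values are a description.

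Each library held 14435925 to 28424805 fragments on genes (median 18314738). The share of fragments on mitochondrial genes was 7.70 to 8.19% in control, 4.88 to 7.55% with calcium and 3.47 to 4.96% with DES, and its part in the results for calcium and DES was not tested. DES_cadmium replicate 1 stood apart, with 32.3% of its fragments on its 100 most abundant genes, against 20.7 to 27.1% in the others, and it held the highest CD59 of its group. Without it the log2 fold changes against DES were -0.33 for CD55 (adjusted p = 0.745), 0.58 for CD46 (adjusted p = 0.463) and -0.34 for CD59 (adjusted p = 0.636). The library size behind FPKM was 0.693 to 1.15 of the fragments on genes and was lower with DES. Scaling by total fragments moved the median log2 fold change of all genes with DES from 0.05 to -0.12 and with calcium from -0.01 to -0.13. CD55 and CD46 kept their calls with DES, and CD59 its call with calcium, under that scaling.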

How the data were processed

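Poly-A RNA of 21 MDA-MB-453 libraries (7 groups of 3) was sequenced. The submitters' notes name HISAT2 2.0.5, featureCounts 1.5.0-p3 and GRCh38.p14, and the paper's methods name DESeq2 and edgeR, neither of which was run here. What the authors deposited is a table of FPKM for each gene in each library, beside the length and annotation of the gene. FPKM multiplied by gene length gave whole fragments for 100% of values (tolerance 0.01), and no pair of libraries shared equal fragments in over 2.35% of genes with a mean of at least 10.

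The main test was limma 3.58.1 in R 4.3.3 (lmFit, then eBayes with a trend) on log2(FPKM + 0.1), which understates the change of low genes, over the 14686 genes whose mean reached 0.5 FPKM, each fit holding only the groups it compared. Two-sided p-values were adjusted by Benjamini-Hochberg over all genes tested (threshold 0.05), over 8 comparisons. Ratios used an exact two-sided permutation test. Python 3.11.15, numpy 2.4.6, pandas 2.3.3, scipy 1.17.1 and matplotlib 3.10.9 were used. The steps were tested on simulated data. Promoters are RefSeq windows.

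The members, gene lists and tests were chosen with earlier results of these data known. Genes named are the members, the 5 most correlated with each, list genes that were called (at most the 4 largest per list and comparison) or were among the 4 most abundant, genes of the region around CD46 and CD55, and 2 binding partners. C3, CEACAM6 and DPM2 were named after their values were seen.

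The labels do not say that a replicate number marks a shared batch. Deviations of same-numbered libraries from their group means correlated at 0.132, 0.103 and 0.280 for DES_calcium and DES, and at 0.472, 0.121 and 0.313 for DES_cadmium and DES, so a fit with the replicate number as a block was set beside them. The values printed are from the fits without the block unless it is named. In the other 4 pairwise comparisons at least 1 pair was under 0.1. Alternatives were a pseudocount of 1, no filter, a filter at a mean of 2 FPKM, scaling by median ratios, all groups in one fit, limma-voom on recovered fragments, a replicate block, each library left out and, chosen after seeing the data, scaling by total fragments.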

Additional observations from a re-analysis of the deposited data

Results flagged for a closer look

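The effect of calcium on CD59 differed between cells with and without DES by the interaction term of limma, at -1.29 on the log2 scale (SE 0.23, adjusted p = 0.0172). CD59 was above control in 3 of 3 calcium libraries, as for 16.0% of genes. It was below DES in 3 of 3 DES_calcium libraries, as for 12.1% of genes, and that comparison was not called for CD59 (adjusted p = 0.536 by limma). The group means were 7.66, 16.1, 8.13 and 6.95 FPKM in control, calcium, DES and DES_calcium.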

How the results depend on the processing

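CD55 with DES was called in 8 of 8 alternatives and 6 of 6 fits with a library left out (log2 fold change 1.22 to 1.59), all against control libraries that had entered the choice of CD55. CD59 with calcium (1.06) lost its call with no filter (adjusted p = 0.112) and in the replicate block (adjusted p = 0.0699), and left-out libraries gave 0.931 to 1.15. CD46 with DES (-0.81) lost its call with no filter (adjusted p = 0.103) and in the replicate block (adjusted p = 0.0585), and left-out libraries gave -0.948 to -0.636. The calcium interaction of CD59 (-1.29) lost its call with all groups in one fit (adjusted p = 0.0721), and left-out libraries gave -1.38 to -1.16. The cause of each was not tested. Uncalled values turned sign for CD59 with DES under scaling by total fragments (-0.0782) and limma-voom (-0.0865) and for CD59 in DES_cadmium under median-ratio scaling (0.0125). Left-out libraries gave -0.0230 to 0.184 for CD59 with DES, -0.335 to 0.266 for CD59 in DES_cadmium, -0.0329 to 0.361 for CD46 with calcium, -0.0736 to 0.328 for its calcium interaction, and, against DES, -0.000783 to 0.770 for CD55 in DES_calcium and -0.327 to 0.159 in DES_cadmium. Same-numbered libraries correlated above 0.1 throughout only within the DES groups, and the block changed no call of a member there (adjusted p 0.331 to 0.989). For the 33 calls of listed genes and JAG1, 200 alternative fits kept the call and 60 lost it. Of the fits with a library left out 106 kept it and 128 lost it. These calls include PRNP with calcium, which the study had selected for that rise.

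The numbers of genes called moved more. For calcium against control (1046) it was 60 with no filter, 1586 in limma-voom and 260 in the replicate block, and 7 to 758 with a library left out. For cadmium (22) it was 148 with a pseudocount of 1, 38 with no filter, 156 at a mean of at least 2, 14 under total fragments, 1026 in one fit, 454 in limma-voom and 3 in the block, and 1 to 1605 with a library left out. For GSK4716 (0) limma-voom gave 49 and left-out libraries 0 to 1. For DES (4340) no filter gave 2106 and left-out libraries 1930 to 5078. For DES_calcium (20) it was 5 with a pseudocount of 1 and at a mean of at least 2, 166 in one fit, 0 with no filter, in limma-voom and in the block, and 0 to 41. For DES_cadmium (39) it was 77 with a pseudocount of 1, 7 with no filter, 3 at a mean of at least 2, 603 in one fit, 0 in limma-voom and in the block, and 0 to 96. The calcium interaction (533) gave 208 with no filter, 180 in one fit and 181 to 830. The cadmium interaction (173) gave 368 with a pseudocount of 1, 77 at a mean of at least 2, 802 in one fit, 42 in limma-voom, 291 in the block and 15 to 410. The members' values rest on at least 368 fragments.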
